A study of Mus musculus with 20 samples.

Results

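Gene expression in the inner plexiform layer of the mouse retina was compared between dark-adapted and light-adapted animals. The comparison used the 2 arrays labelled as dark-adapted inner plexiform layer and the 2 labelled as light-adapted inner plexiform layer, 4 of the 20 arrays of the series, chosen by their labels alone. All animals were adult C57BL/6 mice. The dark-adapted mice had spent 3 h in a chamber with at most 0.4 lux, and the light-adapted mice had been kept 6 h at 450 lux. The other 16 arrays covered whole retina and 3 further layers (photoreceptor, inner nuclear and ganglion cell), each with 2 dark-adapted and 2 light-adapted arrays. Layers were cut from sections by laser capture microscopy. No label says which animal an array came from, so the p-values measure the spread between replicate arrays, which may be technical in some groups. The dark and light groups also differed in the length of adaptation, and the time of day of the dark samples was not given in the sources used here, so darkness, duration and time of day cannot be told apart.

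The inner plexiform layer is the synaptic layer between the inner nuclear and ganglion cell layers. Bipolar cell terminals release glutamate there onto ganglion and amacrine cell dendrites, and amacrine cells add inhibition through GABA and glycine. It holds few cell bodies, so its RNA comes from neurites, terminals, Müller glial processes and displaced or neighbouring somata. Light changes which bipolar and amacrine cells are active in it, and glutamate released in it is cleared by transporters of the Slc1 family in neurons and Müller cells.

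Levels are given as log2 of the array intensity, with intensities under 8 set to 8, a log2 level of 3. Differences are dark minus light on that scale, between the means of 2 dark and 2 light arrays. The standard error (SE) comes from the fit over all 20 arrays given next and pools the spread of all groups. It can be smaller or larger than the inner plexiform layer arrays alone would give. Slc1a1 had an SE of 0.24, with standard deviations of 0.63 in its dark and 0.039 in its light inner plexiform layer arrays. Rlbp1 had an SE of 0.23, with standard deviations of 0.0007 in dark and 0.12 in light. Adjusted p-values come from limma (moderated tests in 1 fit over all 20 arrays, two-sided, Benjamini-Hochberg adjustment over all 15057 genes tested), and a gene is said to have risen or fallen in the dark where the adjusted p was under 0.05. In bulk samples, fewer cells of a type and less RNA per cell cannot be told apart.

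The 4 arrays did not separate cleanly by condition. Across genes, dark replicate 1 correlated at 0.851 with dark replicate 2, but at 0.864 and 0.868 with the light arrays, while the light arrays correlated with each other at 0.873. Dark replicate 2 correlated with the light arrays at 0.777 and 0.810. The dark arrays had median correlations of 0.843 and 0.850 with the arrays of the other 3 layers, and the light arrays had 0.757 and 0.787, the lowest of the 16 dissected arrays, whose others lay between 0.812 and 0.878. Marker lists were compared with the other dissected layers. Rod genes averaged 7.21 and 6.46 in dark and 6.92 and 6.78 in light inner plexiform layer, against 9.37 in dark and 9.38 in light photoreceptor layer. Ganglion cell genes averaged 6.10 and 6.52 in dark and 5.88 and 6.19 in light, against 7.30 in dark and 7.48 in light ganglion cell layer. Photoreceptor and ganglion cell RNA was thus below its own layer in all 4 arrays. Genes of the Y chromosome gave high signal on 5 light-adapted arrays of other tissues and on none of these 4. In light photoreceptor layer, inner nuclear layer and whole retina, replicate 1 had this signal and replicate 2 did not. Those replicates thus came from different animals, which is not known for the inner plexiform layer.

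The gene that differed most between dark and light was Slc1a1, a neuronal transporter that takes up glutamate and aspartate. Its log2 level was 4.31 and 5.21 in the dark arrays, against 8.18 and 8.24 in the light arrays. The groups lay far apart, and the spread within each was under 1 log2 unit. Slc1a1 was lower in the dark by 3.45 on the log2 scale (difference -3.45 ± 0.24 SE, limma adjusted p = 7.4e-07), which is 10.9-fold higher in light. In the 12 arrays of the other layers its level ranged from 7.07 to 9.23 with a median of 8.66, so the light arrays lay within that range and both dark arrays below it. The dark photoreceptor layer averaged 8.68 and the light one 7.09, a difference of the opposite sign (1.59 ± 0.24 SE, limma adjusted p = 0.0106). Whole retina likewise averaged 9.21 in dark and 7.19 in light (2.02 ± 0.24 SE, limma adjusted p = 0.00111). The inner nuclear layer averaged 8.57 in dark and 8.59 in light, and the ganglion cell layer 9.23 in dark and 8.69 in light, and neither difference passed the test. The dark effect on Slc1a1 in the inner plexiform layer thus differed from the mean dark effect of the other 3 layers by -4.15 ± 0.27 (SE, limma adjusted p = 3.8e-07). It was called in all alternative settings tried, with differences between -3.89 and -2.84 and adjusted p from 8.9e-08 to 0.0284. The gene was represented by 1 probe set. Its replicate arrays differed by 0.0061 in dark whole retina, the closest pair, and by 0.895 in dark inner plexiform layer, the widest of the 10 pairs.

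**Figure D1:**
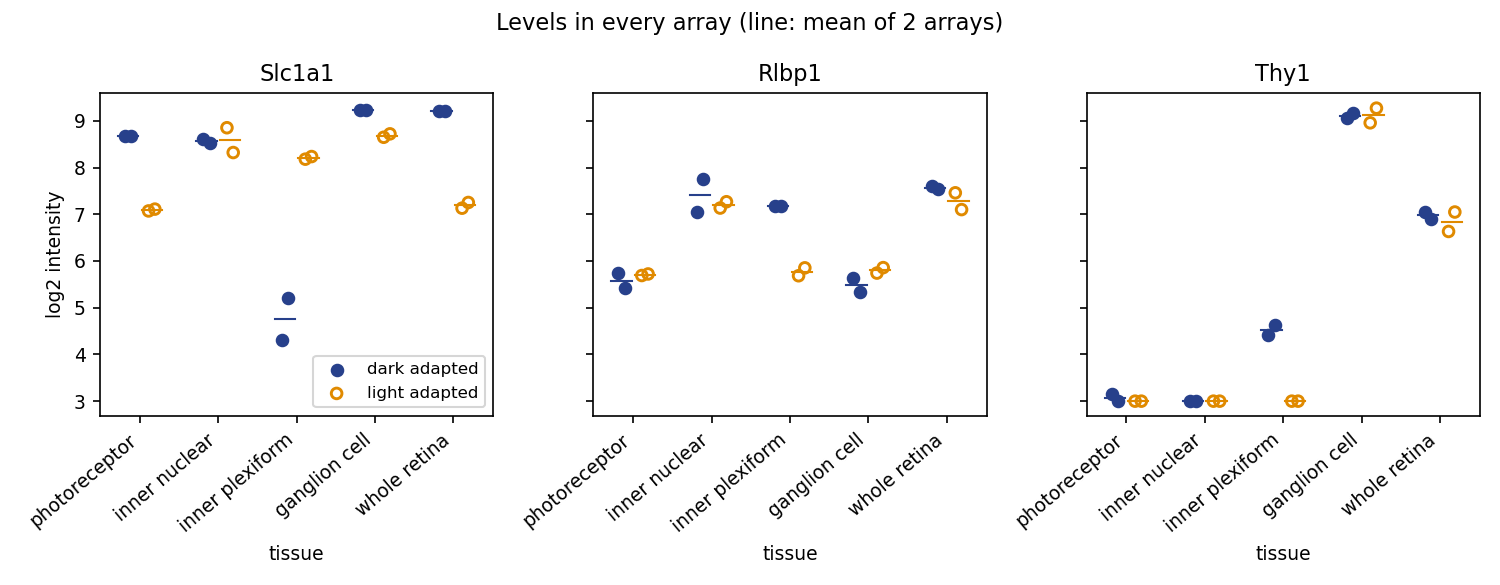
Log2 level (vertical axis) of Slc1a1, Rlbp1 and Thy1 on every array, with dark-adapted arrays left of light-adapted arrays in each of the 5 tissues; each point is 1 array and each line the mean of 2. Slc1a1 sits at 4.31 and 5.21 in dark inner plexiform layer, below all 18 other arrays of the series.

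The other measured members of the Slc1 family did not pass the test. The dark-minus-light difference was 0.38 for Slc1a3, the main glutamate transporter of Müller cells, and -0.05 for Slc1a2, found in bipolar cells and photoreceptors. Slc1a6 differed by -0.34, Slc1a7 by -0.12, and the neutral amino acid transporters Slc1a4 and Slc1a5 by -0.22 and 0.11.

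Across the transcriptome, 276 of 15057 genes (1.83%) differed between dark and light, of which 108 (0.717%) rose and 168 (1.12%) fell in the dark. Those that rose were 39.1% of the called genes, and 27.5% with log2 of the intensity plus 16. At an unadjusted p under 0.05 there were 2815 genes (18.7%). The median difference over all genes was -0.03. Among the genes that rose, the median difference was 1.33 and 97 exceeded 1 log2 unit, and among those that fell it was -1.08 and 109 were beyond 1 log2 unit. The dark and light arrays did not overlap for any of the 276 genes, nor did they for 41.8% of all genes tested. The count depended on single arrays and on the model of the spread. It was 17 without dark replicate 2, 81 without light replicate 1, and 4 when only the 4 inner plexiform layer arrays were fitted. It was 371 without dark replicate 1 and 331 without light replicate 2. It was 3 with array weights, 122 without either dark whole retina array, 138 or 139 without a dark photoreceptor array, 140 without either light photoreceptor array and 160 without either light inner nuclear layer array. Without dark replicate 2 the difference was -3.89 for Slc1a1, 3.68 for Npn2, 2.25 for Gk2 and -2.98 for Rny1. The filter on intensity was not redone for fits without an array, and Rny1 had passed it only through the light inner plexiform layer arrays. The same comparison called 7 genes (0.0465%) in the photoreceptor layer, 1 (0.00664%) in the ganglion cell layer and 4 (0.0266%) in whole retina. In the inner nuclear layer limma called 0 genes, with 473 (3.14%) at an unadjusted p under 0.05, which compares with 1.49% for photoreceptors, 4.08% for ganglion cells and 0.897% for whole retina.

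The 10 genes that rose most in the dark had differences of 2.16 to 3.19. Npn2 had levels of 7.82 and 6.85 in dark and 4.15 and 4.13 in light (3.19 ± 0.51 SE, limma adjusted p = 0.0107), so that the light arrays were close to the floor. Ctsl, the lysosomal protease cathepsin L, had 5.22 and 6.99 in dark and 4.02 and 3.75 in light (2.22 ± 0.41, adjusted p = 0.0173). Rit2, a Ras-like GTPase of neurons, had 6.57 and 7.79 in dark and 4.87 and 5.10 in light (2.20 ± 0.39, adjusted p = 0.0138). In each of these the lower dark array was well above the higher light array, while the dark arrays differed from each other by about 1 log2 unit or more. Luc7l3, a splicing factor associated with the U1 particle, had 8.15 and 9.34 in dark and 6.403 and 6.63 in light (2.23 ± 0.47, adjusted p = 0.0275). Bex1, a small adaptor protein of developing and injured neurons, had 5.005 and 5.65 in dark and was under the floor on both light arrays, which makes it at least 5.02-fold higher in the dark (adjusted p = 0.0271). The large uncharacterised transcript 4932438A13Rik had 7.71 and 7.83 in dark and 5.39 and 5.35 in light (2.40 ± 0.59, adjusted p = 0.0488), and 13 of its 18 other probe sets differed in the same direction.

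Hmcn1, which encodes the extracellular matrix protein hemicentin, had 9.24 and 8.22 in dark and 6.50 and 6.52 in light on its brightest probe set (2.22 ± 0.53, limma adjusted p = 0.0445). The array has 77 probe sets for Hmcn1, and their mean gave a difference of the opposite sign, -0.11 with an adjusted p of 0.83, so no direction can be given for this gene. The remaining genes among those that rose most were the predicted genes Gm10767 (2.19) and 9530091C08Rik (2.16) and the odorant receptor gene Olfr1289 (2.16). The dark arrays of Gm10767, at 6.67 and 4.72, and of Olfr1289, at 6.86 and 5.01, differed from each other by nearly as much as the dark and light means did.

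The genes that fell most in the dark, after Slc1a1, were mostly dim on the dark arrays. Rny1, a Y RNA, the small non-coding RNA class bound by the Ro60 protein, had 3.29 and 3.00 in dark, at or near the floor, and 6.13 and 6.41 in light (-3.12 ± 0.35 SE, limma adjusted p = 0.0007). Its spread was 0 in groups of other tissues held at the floor, which makes this p-value too small. Olfr1029, an odorant receptor gene, had 4.76 and 3.02 in dark and 6.58 and 7.19 in light (-3.00 ± 0.49, adjusted p = 0.0107). Trim12c, a tripartite-motif gene, had 3.68 and 4.14 in dark and 6.62 and 6.02 in light (-2.41 ± 0.55, adjusted p = 0.0377). For all 3 genes the light arrays were the bright ones and the groups were separated by more than 1.5 log2 units. Bcdin3d, a methyltransferase that modifies RNA ends, was brighter, with 5.76 and 4.93 in dark and 7.34 and 7.30 in light (-1.98 ± 0.33, adjusted p = 0.0107). Gm10100, a predicted gene, had 6.43 and 5.57 in dark and 8.34 and 7.73 in light (-2.03 ± 0.31, adjusted p = 0.0083). Fitm1, an endoplasmic reticulum protein of lipid droplet formation, differed by -1.98 ± 0.42 (adjusted p = 0.0281). Mnx1, a homeobox factor of motor neurons, and Krt27, a hair follicle keratin, both differed by -1.96 (adjusted p = 0.0205 and 0.0276).

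**Figure D2:**
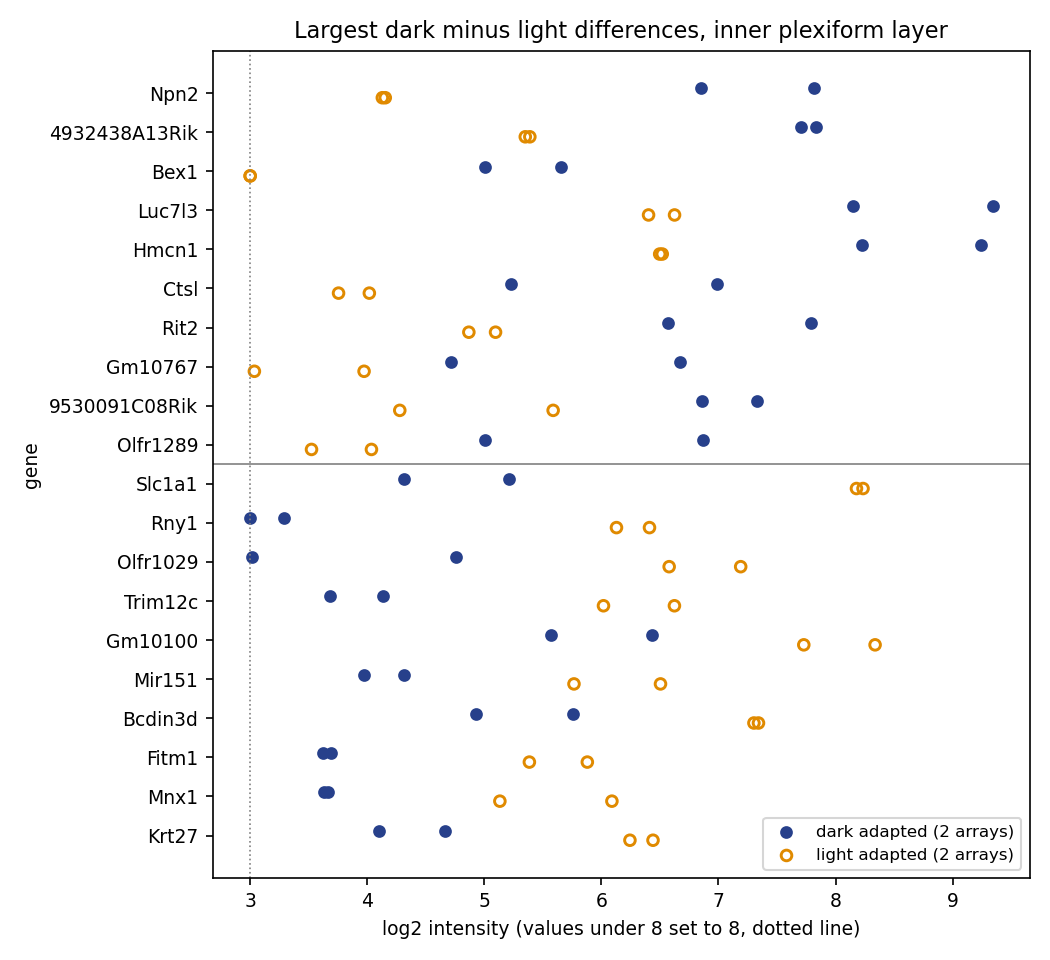
Log2 level (horizontal axis) of the called genes with the largest differences, 1 row per gene, with points for each dark-adapted and each light-adapted array of the inner plexiform layer. The genes were chosen among called genes without overlap, and the dark points of Slc1a1 and Rny1 lie furthest below their light points.

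The called genes were mostly those in which the light arrays departed from the rest of the retina. For 93 of the 108 genes that rose in the dark (86.1%) and 161 of the 168 that fell (95.8%), the light mean was farther than the dark mean from the mean of the other 3 layers, against 68.9% of all genes. The exceptions were 15 genes that rose, among them Bex1, Rit2, Isl1 and Rlbp1, and 7 that fell, among them Slc1a1 and Atp1b3, the beta-3 subunit of the sodium pump. Of the genes that fell in the dark, 35 of 168 (20.8%) were at or under a log2 level of 5 on all 4 whole retina arrays, against 5 of 108 (4.63%) of those that rose and 12.6% of all genes. The signs of the called genes in the other layers were also counted. Of the genes that rose here, 56.5%, 57.4% and 46.3% had a positive dark-minus-light difference in the photoreceptor, inner nuclear and ganglion cell layers, against 50.2%, 46.3% and 51.2% of all genes. Of those that fell here, 44.6%, 36.3% and 53.6% were positive in the same 3 layers. Both sets leaned the same way as here in the photoreceptor and inner nuclear layers and the opposite way in the ganglion cell layer, with no test of these shares. These shares are a description, since the light arrays that stand apart from the other layers also set the dark-minus-light difference.

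**Figure D3:**
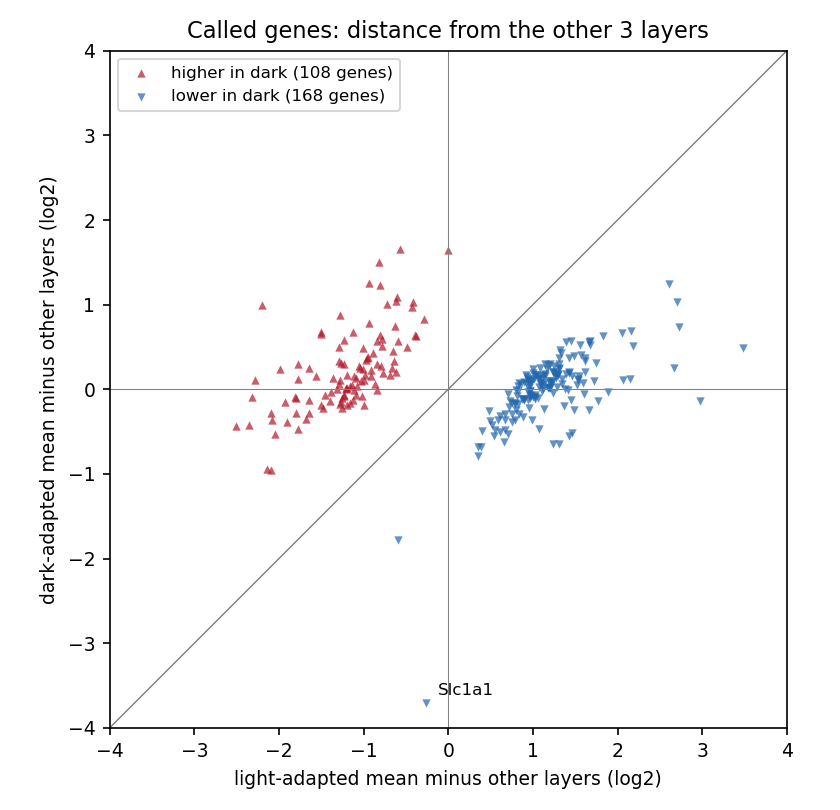
Dark mean minus the mean of the other 3 layers (vertical axis) against light mean minus that mean (horizontal axis), in log2 units, for the 276 called genes of the inner plexiform layer; the diagonal marks equal dark and light means. Most points lie farther from 0 along the light axis, and Slc1a1 lies far below 0 in the dark alone.

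Müller glia span the retina and supply the processes that surround the synapses of this layer. Of 14 measured Müller cell genes, 2 rose in the dark (14.3%, against 0.717% of all genes) and none fell, and the list's median difference was 0.50 against -0.03 for all genes. Rlbp1, the retinaldehyde-binding protein of Müller cells and pigment epithelium, had 7.17 on both dark arrays and 5.68 and 5.85 in light (1.403 ± 0.23 SE, limma adjusted p = 0.0107). The dark arrays agreed closely. In the inner nuclear layer, where Müller cell bodies lie, Rlbp1 averaged 7.40 in dark and 7.20 in light, and the difference did not pass the test. Kcnj10, the inward-rectifying potassium channel of Müller cells, had 6.20 and 6.32 in dark and 4.78 and 5.53 in light (1.11 ± 0.26, adjusted p = 0.0423). Not called were Vim, an intermediate filament protein (1.30, adjusted p = 0.091), and Glul, glutamine synthetase (0.84, adjusted p = 0.31), while Sox9 was -0.62 (adjusted p = 0.15). The list's mean level was 6.82 and 7.11 in dark and 6.25 and 6.60 in light. How far a different share of Müller cell material in the dissected tissue accounts for these values was not tested.

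Of 16 bipolar cell genes, 1 rose (6.25%, against 0.717% of all genes) and none fell, with a list median of 0.29. Of 19 ganglion cell genes, 2 rose (10.5%) and none fell, with a list median of 0.15. Isl1, a homeodomain factor of ON bipolar, starburst amacrine and ganglion cells, was called in both lists, with 7.21 and 7.42 in dark and 5.39 and 5.92 in light (1.66 ± 0.34 SE, limma adjusted p = 0.0266). Thy1, a surface glycoprotein of ganglion cells, had 4.43 and 4.62 in dark and was under the floor on both light arrays, so it was at least 2.88-fold higher in the dark (adjusted p = 0.0053). Its spread was 0 in groups held at the floor, which makes this p-value too small. Its difference ran from 0.52 to 1.62 across the alternative settings. Both dark values were dim, since the 12 arrays of the other layers reached 9.27 for Thy1, in the ganglion cell layer. None of 13 amacrine cell genes was called. Pax6, a factor of amacrine and ganglion cells, differed by 1.07 (adjusted p = 0.15), and Slc32a1, the vesicular transporter of GABA and glycine, by 0.71 (adjusted p = 0.15). Slc18a3 and Chat, the vesicular acetylcholine transporter and choline acetyltransferase of starburst cells, differed by -0.67 (adjusted p = 0.19) and -0.54 (adjusted p = 0.34). The amacrine list averaged 6.20 and 7.03 in dark and 6.24 and 6.31 in light, so that dark replicate 2 alone was high. The glutamate decarboxylase gene Gad1 differed by 0.20, the glycine transporter gene Slc6a9 by 0.31 and Trpm1, the transduction channel of ON bipolar cells, by 0.77 (adjusted p = 0.12). The bipolar list averaged 6.68 and 6.87 in dark and 6.31 and 6.49 in light. None of 17 rod genes and 10 cone genes was called, with medians of 0.02 and 0.04.

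Of 24 synaptic vesicle genes, 1 rose (4.17%, against 0.717% of all genes) and none fell, a single call. Cplx3, a complexin of ribbon synapses, had 7.05 and 7.88 in dark and 5.57 and 6.53 in light (1.41 ± 0.32 SE, limma adjusted p = 0.0355). The complexin genes Cplx1 (0.21), Cplx2 (-0.26) and Cplx4 (0.03) were not called. None of 13 ionotropic glutamate receptor genes was called. Gria2 and Gria3, subunits of AMPA receptors, differed by 1.96 (adjusted p = 0.19) and 1.46 (adjusted p = 0.19). Of 7 metabotropic receptor genes Grm3 had the smallest p, at a difference of -1.10 (adjusted p = 0.16), and none was called. None of 13 genes for GABA and glycine receptors was called, with Gphn, the scaffold gephyrin of inhibitory synapses, at 0.81. None of 17 postsynaptic density genes was called (Nrgn, neurogranin, -0.82). Among 13 potassium and HCN channel genes 2 rose (15.4%, against 0.717% of all genes) and none fell, Kcnj10 and Kcna5, a voltage-gated potassium channel. Kcna5 had 5.12 and 5.33 in dark and 4.34 and 3.83 in light (1.14 ± 0.27, adjusted p = 0.0427). None of 14 sodium and calcium channel genes was called (Scn8a 1.24, adjusted p = 0.076). Of 6 gap junction and pannexin genes none was called, with 2 positive and 4 negative differences and a list median of -0.58. Gjd2 (0.73) and Gja1 (0.56) were positive, and Gjb2 (-0.62) and Gjb6 (-0.54) were negative. The pannexin genes Panx1, with 6.33 and 5.83 in dark and 6.97 and 6.99 in light (-0.90, adjusted p = 0.057), and Panx2, with 7.91 and 7.79 in dark and 8.56 and 8.76 in light (-0.81, adjusted p = 0.070), did not overlap between the groups, as was so for 41.8% of all genes. Panx1 passed the test in 9 alternative settings and Panx2 in 3.

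**Figure D4:**
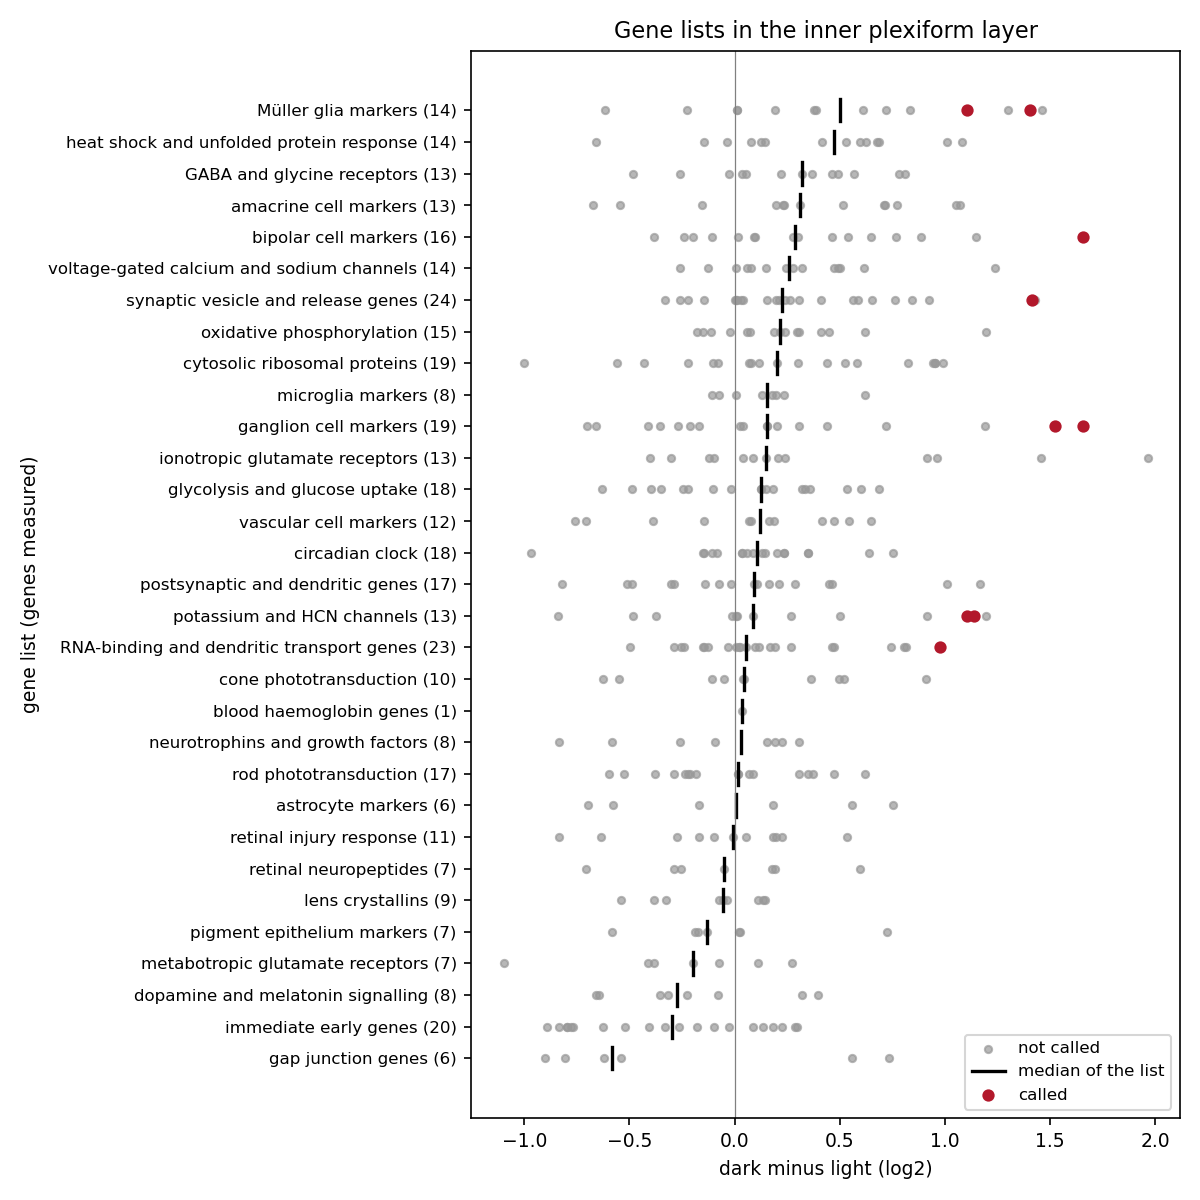
Dark-minus-light difference in log2 units (horizontal axis) of each measured member of the gene lists, 1 row per list, with the list median marked and called genes drawn apart. Called members lie right of 0 in the Müller, bipolar, ganglion cell, synaptic vesicle, potassium channel and RNA-binding lists, and list medians run from -0.58 to 0.50.

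The fixed lists of immediate early, clock and dopamine genes held no called gene. None of 20 immediate early genes passed the test, and the list's median was -0.30. The phosphatase gene Dusp1 had 5.88 and 5.65 in dark and 6.58 and 6.54 in light (-0.80, limma adjusted p = 0.089), and Jund had 7.43 and 6.95 in dark and 7.81 and 8.13 in light (-0.78, adjusted p = 0.092). Both had all dark values below all light values, as 41.8% of all genes had groups that did not overlap in either direction. The transcription factor genes Egr1 (-0.77, adjusted p = 0.28), Junb (-0.63, adjusted p = 0.36) and Fos (-0.33, adjusted p = 0.57) also had negative differences, and Nr4a1 (0.30) and Arc (0.29) had positive ones. Npas4 was at -0.10. None of 18 clock genes was called (list median 0.11), with Per1 at 0.03, Per2 at 0.24, Dbp at 0.15 and the repressor gene Cry1 at -0.97 (adjusted p = 0.062). Of the dopamine and melatonin genes 8 were measured and none was called. Th, tyrosine hydroxylase of dopaminergic amacrine cells, was at -0.08 and the dopamine transporter gene Slc6a3 at -0.66 (adjusted p = 0.11). The neurotrophin gene Bdnf was at -0.58 (adjusted p = 0.25).

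Lists on metabolism and protein synthesis gave few calls. Of 23 RNA-binding genes 1 rose (4.35%, against 0.717% of all genes), Paip2, a protein that lowers translation by binding poly(A)-binding protein. It had 6.43 and 6.31 in dark and 5.33 and 5.46 in light (0.98 ± 0.22 SE, limma adjusted p = 0.0369), and it was also higher in the dark photoreceptor layer (2.23 ± 0.22, adjusted p = 0.00011). In the ganglion cell layer and whole retina its difference was also positive, 1.25 ± 0.22 and 1.05 ± 0.22, and in the inner nuclear layer negative, -0.95 ± 0.22. Those differences did not pass after adjustment. None of 19 ribosomal protein genes was called (median 0.20, Rps6 0.95), nor of 15 oxidative phosphorylation genes (0.22, Ndufa4 1.19, adjusted p = 0.054), nor of 18 glycolysis genes (0.13). Among 14 chaperone and stress genes none was called (median 0.47, Hspa5, the chaperone BiP, 1.01, adjusted p = 0.074). None was called among 8 microglial, 6 astrocyte, 12 vascular, 7 pigment epithelium, 9 crystallin, 7 neuropeptide, 8 neurotrophin and 11 injury genes, whose medians lay between -0.13 and 0.15. Of 7 haemoglobin and erythroid genes 1 was measured and not called.

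The array also measured microRNA genes. Their probe sets read long RNA that contains the hairpin, labelled as cRNA, and not the mature microRNA. MicroRNAs bind messenger RNAs through the seed, bases 2 to 8, and lower their translation or stability. Of 141 microRNA genes 4 rose and 10 fell in the dark (9.93%, against 1.83% of all genes). Among the 9260 tested probe sets with no or several gene symbols 10.4% were called in a separate fit. That fit had its own adjustment over those probe sets, so its share and that of the microRNA genes stand at unlike thresholds. The mature sequences below (RefSeq, GRCm38.p6, 5′ to 3′, seed in capitals) are shown so that the seeds of the called genes can be compared, 1 mature form for each hairpin.

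mmu-miR-331-3p: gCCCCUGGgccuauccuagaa
mmu-miR-615-3p: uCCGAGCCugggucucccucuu
mmu-miR-92b-3p: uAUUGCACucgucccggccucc
mmu-miR-326-3p: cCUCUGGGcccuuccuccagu
mmu-miR-425-5p: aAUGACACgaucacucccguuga
mmu-miR-212-3p: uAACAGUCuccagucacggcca
mmu-miR-483-3p: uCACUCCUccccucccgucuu
mmu-miR-24-3p: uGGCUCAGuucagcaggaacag
mmu-miR-139-5p: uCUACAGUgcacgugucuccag
mmu-miR-680: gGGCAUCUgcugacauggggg
mmu-miR-6516-5p: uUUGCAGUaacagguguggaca

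The first 9 belong to genes that fell in the dark and the last 2 to genes that rose. The 12 called genes with a mature sequence gave 22 mature forms with 21 distinct seeds. The shared seed was that of miR-680, made from both Mir680-1 and Mir680-3, which both rose. The called genes therefore did not form a seed family.

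Among the microRNA genes that fell, Mir151 had 4.31 and 3.97 in dark and 6.50 and 5.77 in light (-1.99 ± 0.37 SE, limma adjusted p = 0.0174). Like Rny1, it passed the filter only through the light arrays, so its test used the high values that selected it. Mir331 had 5.76 and 5.04 in dark and 7.27 and 6.87 in light (-1.67 ± 0.37, adjusted p = 0.0334). Mir212, made in response to neuronal activity through CREB, had 8.08 and 7.67 in dark and 9.001 and 8.81 in light (-1.03 ± 0.23, adjusted p = 0.0363). Mir132, from the same cluster as Mir212, was at -0.67 and was not called. The others that fell were Mir615 (-1.25), Mir92b (-1.17), Mir326 (-1.14), Mir425 (-1.13), Mir24-2 (-0.94) and Mir139 (-0.77), with Mir483 between Mir212 and Mir24-2. Mir143 rose, with 6.23 and 6.32 in dark and 4.78 and 4.34 in light (1.71 ± 0.23, adjusted p = 0.0045), as did Mir680-1 (1.39), Mir6516 (1.12) and Mir680-3 (1.01).

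The cluster that holds Mir182 and Mir96 is known in the retina for lower levels in darkness, and Slc1a1 is among its described targets. Mir182 had 5.51 and 5.66 in dark and 5.27 and 3.68 in light (1.105, limma adjusted p = 0.18). Its groups did not overlap, as was so for 41.8% of all genes. Mir96 had 6.08 and 4.16 in dark and 3.63 and 4.20 in light (1.21, adjusted p = 0.21), so its groups overlapped. Both differences were positive, and neither gene was called. Their probe sets read RNA that contains the hairpin and not the mature microRNA, so these signs cannot be set against levels of the mature forms. Mir211, on another chromosome, was at -0.11 and was not called.

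Base composition was compared between the hairpins. Of 141 genes, 115 had a hairpin sequence. The median share of G and C was 59.5% in the 8 that fell (52.1 to 69.2%), 50.9% in the 3 that rose (49.4 to 57.8%) and 53.6% in the 104 not called. Across the 115 genes the dark-minus-light difference correlated with the share of G and C at a Pearson r of -0.386 and a Spearman rho of -0.388 in the inner plexiform layer. In the photoreceptor, inner nuclear and ganglion cell layers and whole retina r was -0.152, -0.140, 0.097 and -0.076. These are correlations across genes that share the same arrays and labelling, and genes are not independent replicates. Whether base composition plays a part in the microRNA result was not tested.

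**Figure D5:**
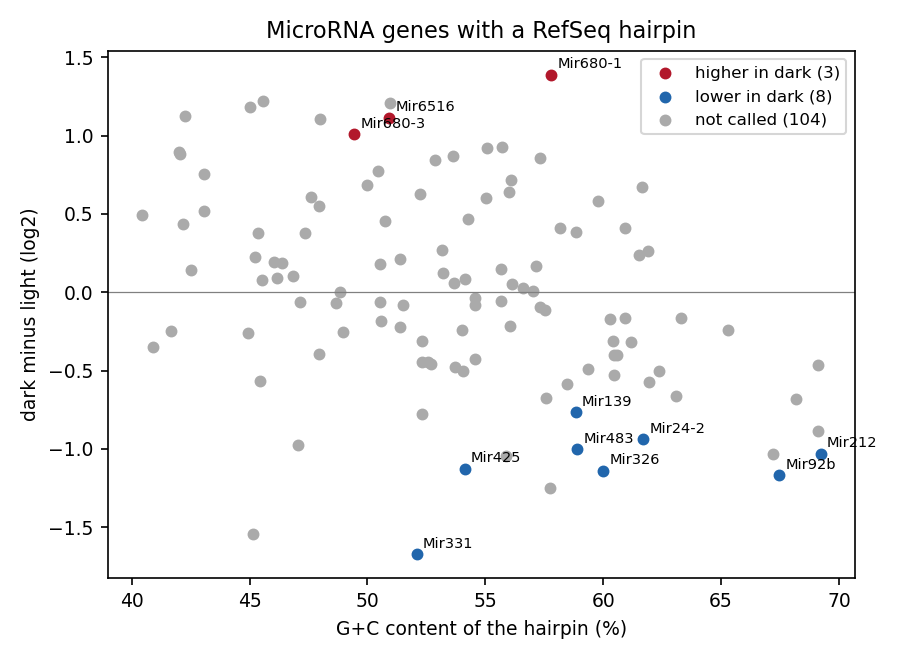
Dark-minus-light difference in log2 units (vertical axis) against the share of G and C in the hairpin in percent (horizontal axis) for the 115 microRNA genes with a hairpin sequence; red points rose in the dark, blue points fell and grey points were not called. The 8 genes that fell lie between 52.1 and 69.2%, and the 3 that rose between 49.4 and 57.8%.

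The dark effect in the inner plexiform layer differed from the mean dark effect of the photoreceptor, inner nuclear and ganglion cell layers for 26 of 15057 genes (0.173%), 14 more positive and 12 more negative here. At an unadjusted p under 0.05 there were 2060 (13.7%). Arrays with Y-linked signal were all light-adapted arrays of other tissues, including each of these 3 layers. Y-linked signal and light adaptation can therefore not be fully told apart in this contrast. Slc1a1 led the negative side (-4.15), followed by Olfr1029 (-3.00 ± 0.57 SE, limma adjusted p = 0.043), Rny1 (-2.94 ± 0.41, adjusted p = 0.0077), Mir151 (-2.24) and Gm10100 (-2.06). Rny1 and Mir151 had passed the filter only through the light inner plexiform layer arrays. On the positive side were Ctsl (2.49 ± 0.47, adjusted p = 0.043), Gk2, a glycerol kinase gene of testis (2.14 ± 0.39, adjusted p = 0.0391), Ubxn4, of endoplasmic reticulum protein degradation (2.11), Wt1os, antisense to Wt1 (1.98), Thy1 (1.498) and Rlbp1 (1.48). In the inner plexiform layer Gk2 had 6.17 and 5.75 in dark and 3.96 and 3.87 in light, and Ubxn4 had 6.29 and 6.48 in dark and 4.15 and 4.49 in light. Opn1sw, the short-wavelength cone opsin, also passed at 2.12 ± 0.30 (adjusted p = 0.0077), but its difference in the inner plexiform layer was 0.04, with levels at or near the floor. That value came from the photoreceptor layer, where its dark-minus-light difference was -6.21 ± 0.26. Leaving out any single array other than light inner plexiform layer replicate 1 (18 genes) moved the count of 26 by over 1.5 times, to between 5 without light inner nuclear layer replicate 2 and 82 without light inner plexiform layer replicate 2. It was 1 when the arrays with Y-linked signal were left out.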

How the data were processed

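RNA from laser-dissected mouse retinal layers was amplified by 2-cycle biotin labelling and hybridised to Affymetrix arrays, per the labels' protocols. The deposited values are probe set intensities made with GCRMA, per the submitters' processing notes. Their linear scale was read from the values, with array medians of 37.5 to 40.8. The authors' intensities were floored at 8 (11.3 to 14.1% of values per array) and taken to log2. Of 35557 probe sets, 21789 carried exactly 1 symbol in the platform annotation, 1621 several and 12147 were not listed. Probe sets above log2 5 on at least 2 of 20 arrays were kept (16444), and each of 15057 genes was represented by its brightest. Rny1 and Mir151 passed this filter only through the 2 light inner plexiform layer arrays, so their tests used the values that selected them.

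1 linear model with 10 group means and 10 residual degrees of freedom was fitted in limma 3.58.1 (R 4.3.3) with an intensity trend, two-sided, Benjamini-Hochberg threshold 0.05. The contrasts were dark minus light in the inner plexiform layer, and that difference minus the mean of the other 3 layers. The procedure was tested on simulated data. Fold bounds for genes under the floor on both arrays of a group used the higher group's mean against the floor. Precision is limited by the small number of arrays and, for dim genes, by the floor. Groups with both arrays at the floor have a spread of 0, which makes the p-values of genes such as Thy1 and Rny1 too small.

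Members and gene lists were chosen with earlier results of these data known. Named genes were the 10 largest called differences in each direction, up to 4 called members per list (otherwise at most 2 by smallest p), fixed light-response and layer marker genes, and the 5 largest in each direction of the second contrast. MicroRNA genes other than these, Slc1 relatives and further list members were named after their values were seen. Vip was not analysed here. Sequences were from RefSeq (GRCm38.p6). Alternatives covered normalization, floor, filter, probe set choice, variance model, Y-linked signal, replicate number and leaving out arrays, the arrays of other tissues being added after seeing the data.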

Additional observations from a re-analysis of the deposited data

Results flagged for a closer look

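The dark effect differed between the inner plexiform layer and the mean of the other 3 dissected layers for 26 genes in a test of the difference itself (limma, adjusted over 15057 genes). Among the named genes the differences of effect were -4.15 for Slc1a1, -3.00 for Olfr1029, -2.94 for Rny1, -2.24 for Mir151 and -2.06 for Gm10100 on the log2 scale, so these fell more in the dark here than elsewhere. They were 2.49 for Ctsl, 2.14 for Gk2, 2.12 for Opn1sw, 2.11 for Ubxn4, 1.98 for Wt1os, 1.498 for Thy1 and 1.48 for Rlbp1. For Opn1sw the inner plexiform layer difference was 0.04, and the value came from the photoreceptor layer. Slc1a1 had a positive dark-minus-light difference in the photoreceptor layer (1.59) and a negative one in the inner plexiform layer (-3.45). No cause of these differences was tested. Rny1 and Mir151 had passed the filter only through the light inner plexiform layer arrays.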

How the results depend on the processing

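The count of 276 genes changed by at most 1.5 times under quantile normalization, median centring, another floor, another filter, no intensity trend, the mean of probe sets and the Y-linked covariate (184 to 333 genes). With log2 of intensity plus 16 it was 378, and the share of calls that were higher in the dark was 27.5% against 39.1% in the reported fit. The count was 3 with array weights, 4 with the 4 inner plexiform layer arrays alone, 1 (Slc1a1) with a minimum log2 difference of 1 and 82 without the arrays with Y-linked signal. With the replicate block it was 781, or 753 with the block within tissue, and both held all 276 genes. Same-numbered arrays deviated together at correlations of 0.114 to 0.344, but with 2 numbers per comparison these were not taken as pairs. Leaving out 1 array at a time gave 17 to 371 genes.

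The count of 26 against the other layers was 48 with log2 of intensity plus 16, 56 with no filter, 54 with the Y-linked covariate, 1 with array weights, 1 with the minimum difference, 1 without the arrays with Y-linked signal, 2 with the dissected arrays alone, and 186 or 201 with the replicate block. Leaving out 1 array gave 5 to 82.

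Of 30 named called genes, Slc1a1 alone kept its call under every alternative. Of the 62 named genes not called, 13 passed in at least 1 alternative, led by Panx1 (9 alternatives, lowest adjusted p = 0.0254), Ndufa4 (5), Rps6 (4) and Panx2 (3). Hmcn1 reversed to -0.11 with the mean of its probe sets. Among genes not called, median centring gave Alas2 -0.0028 and Per1 -0.0019, and the Y-linked covariate gave -0.016 and -0.012. Leaving out 1 inner plexiform layer array gave ranges that cross 0 for Alas2 (-0.554 to 0.622, also -0.115), Per1 (-0.121 to 0.191, also -0.110), Per2 (-0.112 to 0.585, also -0.023), Cx3cr1 (-0.026 to 0.379), Cngb1 (-0.069 to 0.770), Npas4 (-0.258 to 0.065), Dbp (-0.309 to 0.604), Th (-0.456 to 0.298) and Gad1 (-0.270 to 0.660). The cause was not tested. Signal near the floor limits the differences of dim genes.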

Other observations

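Further called genes were picked after their values were seen, from all 276, so they carry no test of any group. Among those that rose were Ptges3 (1.94), Stip1 (1.49) and Ahsa1 (1.36), each a co-chaperone of Hsp90, and Dnajc7 (1.36), while none of the 14 chaperone and stress genes of the fixed list was called. The ribosomal protein genes Rps7 (1.22), Rpl9 (1.13), Rpl36a (0.82) and Rpl23 (0.81) rose, while none of the 19 ribosomal genes of the fixed list did. Scg3 (2.07), a granin of dense-core vesicles, Syt11 (1.90), a synaptotagmin, Ppp3r1 (1.79), the regulatory subunit of calcineurin, and Sparcl1 (1.71), a matrix protein that promotes synapse formation, also rose.

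Among those that fell were the transcription factor genes Dlx2 (-1.65), Klf10 (-1.57), Uncx (-1.54), Irx1 (-1.52), Foxi3 (-1.43), Nkx2-5 (-0.98) and Lmx1b (-0.86). How many such factors were tested was not counted. Atp1b3 was under the floor on both dark arrays and at least 2.27-fold higher in light. Of 398 chemosensory receptor genes, 5 were called higher and 3 lower in the dark (2.01%), close to the 1.83% of all genes. Among the 9260 tested probe sets outside the gene test, 646 were called higher and 315 lower in the dark (10.4%). They were fitted and adjusted apart from the genes, so this share stands at another threshold than 1.83%.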
